A study of Drosophila melanogaster with 4 samples.

Results

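Of the 13866 loci listed for pharate adults of Drosophila melanogaster, 856 carried no gene name. These were the loci whose name field held a dash, and no expression value was used here to choose them. Only 1 of them was listed at 0 in all 4 libraries, so being listed may itself have depended on signal. The sources used here do not give how the authors came to list them. The remaining loci were 12066 with a single gene name and 944 with several names joined together. Each locus has a span on the dm3 genome build and a value in FPKM, a fragment count scaled to transcript length and to depth, as computed by the authors.

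The study sequenced ribosome-depleted total RNA of pharate adults, the last stage before the fly leaves the pupal case. The 4 lines were LU.10580.tg1, LU.10580.tg2, LU.10580hom and LU.10580/CAG, called tg1, tg2, hom and CAG below, and each gave 1 library. The sources used here do not give what these names stand for, any allele or transgene that the lines carry or share, the sex or exact age of the animals or the number pooled. The value column of the CAG library is headed het. Since no line was repeated, no test was run, and every difference is one between single libraries.

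A locus without a name is a listed span of the genome whose entry carries no symbol. Another entry that does carry a symbol can share the span. In flies spans without a symbol can hold long non-coding RNAs, host transcripts of microRNAs, transcripts of transposable elements, small structural RNAs and ends of known genes. The chromosomes named U and Uextra in dm3 join scaffolds that had not been placed, and those ending in Het hold mapped heterochromatin, which is rich in repeats. Ribosomal depletion keeps RNAs without a poly(A) tail that poly(A) selection would discard.

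The libraries held adult transcripts. Act88F, the actin of the indirect flight muscle, had 6336, 6415, 5162 and 5719 FPKM in tg1, tg2, hom and CAG, and ninaE, the main rhodopsin of photoreceptors, had 826, 962, 747 and 919 FPKM. The larval genes Lcp1 and Sgs3 were at most 0.178 FPKM in any library. Acp65Aa, an adult cuticle gene, had 1831 to 3702 FPKM, Ccap, a neuropeptide gene of eclosion, had 2.84 to 5.07, and Yp1, a yolk protein gene of adult females, had at most 1.24. The larval gene Lsp1alpha, which encodes a serum protein, had 51.1, 96.3, 1060 and 193 FPKM. The total depth is unknown. Steps between low values put the depth relative to CAG at 1.116 in tg1, 1.154 in tg2 and 0.762 in hom, from 59 of 652, 103 of 659 and 108 of 579 low loci that lay within 3% of that ratio.

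Most unnamed loci were short and lay between genes. Their median span was 933.5 bp, against 3768 bp for loci with 1 name and 10032 bp for loci with several. In all, 695 of the 856 (81.2%) were apart from every named locus, with a median span of 790 bp. The other 161 (18.8%) all had exactly the span of a named locus, with a median of 35136 bp over 92 different spans. For these the span is that of the whole bundle and does not give the length of the unnamed transcript.

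The spans of the unnamed loci ran from 57 to 259943 bp. Under 200 bp there were 45 unnamed loci (5.26%), against 58 of the loci with 1 name (0.481%). Between 200 and 2000 bp lay 566, and 245 were longer. The longest span, chr3LHet:1744914-2004856, is listed for 9 unnamed loci. The highest of them had 5.40, 5.52, 4.10 and 4.96 FPKM in tg1, tg2, hom and CAG, with no pair of libraries 1 apart on the log2(FPKM + 1) scale. Other loci of that span did differ. With 2 more loci beside it they form a run of 11 that summed to 15.6, 17.1, 17.0 and 31.0 FPKM, highest in CAG. Of its 9 tested members (those averaging 1 FPKM or more), 4 were at least 1 lower in hom than in CAG on that scale. Among all tested loci 3.43% were, and among tested unnamed loci 11.5%. The run has only 3 different spans, so its members are not separate observations.

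By chromosome arm, 158 unnamed loci lay on 2L, 156 on 3L, 155 on X, 152 on 3R, 112 on 2R and 15 on chromosome 4. These main arms held 748, which is 5.51% of all loci there. Their share was highest on X among the large arms, at 6.89%, and lowest on 2R, at 4.19%. Chromosome 4, which is small and largely heterochromatic, reached 15.0%. The other scaffolds held 108 unnamed loci, 37.2% of the loci there, with 43 on Uextra, 29 on U, 15 on 3LHet, 14 on 2RHet, 6 on 3RHet and 1 on 2LHet. None lay on XHet or YHet, which have 9 and 7 loci in the files.

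The nearest named locus was a median of 4100 bp away from the 695 unnamed loci that stood apart. It was under 1 kb away for 159 of them, 1 to 10 kb away for 336 and farther for 200. A Release 6 annotation, used for gene names and their order alone, was searched for further genes between the same pair of named neighbours. The neighbours of 518 of the 592 such loci on the main arms could be matched in order. At least 1 further gene lay between them for 355 loci, and for 163 there was none. Genes of long non-coding RNA were listed there for 291, protein-coding genes for 114, microRNA genes for 43, pseudogenes for 26 and tRNA genes for 11.

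The intervals with unnamed loci were long, which bears on those counts. The 369 intervals between named loci that held an unnamed locus had a median of 16481 bp, and the 8618 that held none had a median of 580 bp. A further Release 6 gene lay in 66.9% of intervals with an unnamed locus and in 11.0% of those without. Among intervals of 5 to 20 kb the shares were 59.0% and 32.2%, and among intervals over 20 kb they were 83.0% and 55.6%. In both length classes the share was higher where an unnamed locus was present. Positions were not carried between builds, so which unnamed locus matches which Release 6 gene was not tested.

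Unnamed loci were low in general, and a few short ones were extremely high. Their median level was 1.86 FPKM in tg1, 2.83 in tg2, 1.83 in hom and 2.16 in CAG. Loci with 1 name had medians of 8.02, 8.25, 8.17 and 8.45 FPKM in the same order. At least 1 FPKM was reached by 628 unnamed loci in tg1, 753 in tg2, 602 in hom and 662 in CAG. Among medians of loci with 1 name the 4 libraries stayed within 8.02 to 8.45 FPKM, while tg2 stood above the others among unnamed loci.

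In spite of the low medians, unnamed loci held 44.8%, 48.6%, 62.4% and 59.1% of the whole FPKM sum in tg1, tg2, hom and CAG. The 5 most abundant of them held 42.1%, 44.3%, 59.6% and 56.4%. Those under 200 bp held at least 98.6% of the unnamed sum in each library. FPKM divides by length, and many of these spans are close to the length of a pair of 48-nt reads. The sum over named loci stayed between 1445040 and 1495230 in the 4 libraries, so nearly all of the difference in total FPKM lay in unnamed loci.

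**Figure D1:**
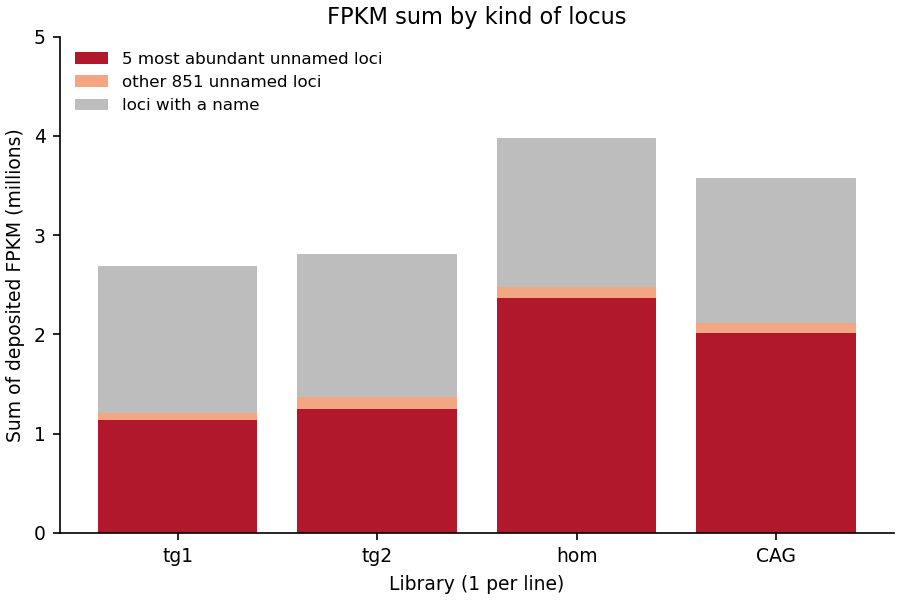
Sum of deposited FPKM in each library (1 per line), split into the 5 most abundant unnamed loci, the other unnamed loci and loci with a name. The named part is nearly level, and the 5 loci make up 42.1%, 44.3%, 59.6% and 56.4% of the sum in tg1, tg2, hom and CAG.

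The most abundant unnamed locus was chrUextra:14297039-14297111, 73 bp long, with 471308, 420076, 1210000 and 1080000 FPKM in tg1, tg2, hom and CAG. Both hom and CAG were more than 1 higher than both tg lines on the log2(FPKM + 1) scale, with tg1 minus hom at -1.36 and tg2 minus CAG at -1.36. The 78-bp locus chrUextra:21747976-21748053 had 149523, 247933, 494148 and 423290 FPKM. It too was higher in hom and CAG than in either tg line, although tg2 lay less than 1 below each of them.

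Other very abundant loci varied less or in another order. The 59-bp locus chrUextra:5988853-5988911 had 237068, 307812, 319490 and 348344 FPKM, with no pair of libraries 1 apart. At chr4:132595-132651, the shortest span at 57 bp, the values were 164897, 180111, 236637 and 83476.9 FPKM, and CAG was the lowest. That locus lies 2224 bp from pan, which encodes the TCF factor of Wnt signalling, and 3669 bp from Ank, which encodes an ankyrin. On 2R, chr2R:159766-159845 had 1077, 13778, 4099 and 4769 FPKM, the highest in tg2 and the lowest in tg1.

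The most abundant unnamed locus of at least 200 bp was chrX:3439608-3440145, 538 bp long. It had 13577, 10779, 16129 and 11307 FPKM in tg1, tg2, hom and CAG, with no pair of libraries 1 apart. The next tier on the main arms was made of short spans. On 3R, chr3R:9276203-9276303 had 1274, 2535, 884 and 1994 FPKM. On 2L, chr2L:22270156-22270259 had 1199, 903, 1770 and 2749 FPKM, highest in CAG.

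Level and span were tied at the short end. The 11 unnamed loci under 100 bp all had a mean over the 4 libraries of at least 3402 FPKM, with a median of 24893. From 100 to under 150 bp the median of 19 loci was 253 FPKM, from 150 to under 200 bp that of 15 loci was 26.5, and from 200 to under 500 bp that of 116 loci was 4.17. The 299 loci of 500 to under 1000 bp had a median of 1.97 FPKM, and the 245 loci of 2000 bp or more had one of 1.77. Loci with 1 name stepped down alike from 100 bp on, with medians of 417 FPKM over 15 loci from 100 to under 150 bp, 27.1 over 18 from 150 to under 200 bp and 2.30 over 287 from 200 to under 500 bp. Under 100 bp, 22 of their 25 loci were listed at 0 in all 4 libraries.

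**Figure D2:**
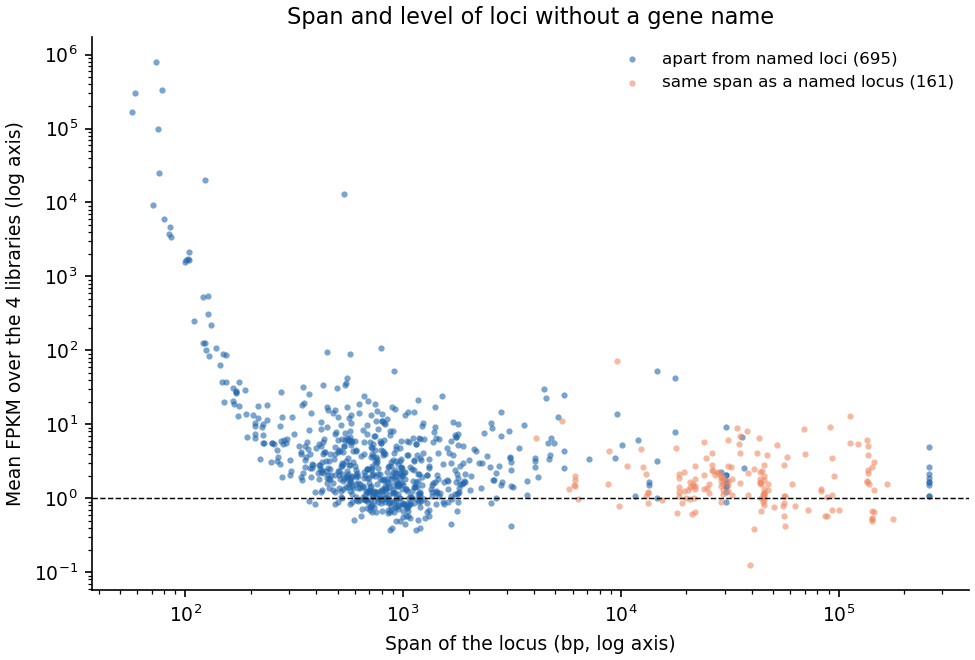
Span in bp against mean FPKM over the 4 libraries, both on log axes, for each unnamed locus; the colours give loci apart from named loci and loci with the same span as a named locus, and the dashed line is at 1 FPKM. The lowest level at each span climbs steeply below 200 bp, and the 11 loci under 100 bp lie at 3402 FPKM or more.

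Unnamed loci with the span of a named locus were compared with the most abundant named locus of that span, a choice that favours a higher partner. Their median over loci was 1.55 FPKM, against 14.8 FPKM for the named partners. The ratio of unnamed to named had a median of 0.110, and 4 of the 161 lay above their partner. For the 89 whose span held exactly 1 named locus, where no such choice was made, the medians were 1.55 and 12.9 FPKM, the median ratio was 0.121, and 3 lay above. Across the 126 loci where both were tested, the differences between libraries of the unnamed and the named locus had a Pearson correlation of 0.18 for tg1 minus tg2 and 0.11 for tg2 minus hom. These points share libraries and named partners, and reads of overlapping transcripts can be split between them in either direction.

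Libraries were compared on the log2(FPKM + 1) scale over loci averaging 1 FPKM or more, and a difference of at least 1, a 2-fold one on that scale, was called. Of the 856 unnamed loci 722 passed this filter, and 134 did not. The mean includes every library, so a locus can pass through a high value in 1 library alone. Among the 722, 53 were listed at 0 in at least 1 library. In whole-animal RNA, fewer cells that make a transcript and less transcript per cell cannot be told apart. The 6 pairs share libraries, so their results are not independent.

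The tg2 library held more of many unnamed transcripts. Against hom, 131 of the 722 were higher in tg2, which is 18.1%, where 3.78% of all 11689 tested loci were called higher. In the other direction 45 were lower in tg2, 6.23%, against 2.69% of all tested loci. The median difference was 0.39 for unnamed loci and 0.02 for all tested loci. Above 0 lay 523 unnamed loci (72.4%), and among loci with 1 name 50.3% did.

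Against CAG, tg2 was higher at 95 unnamed loci (13.2%), where 2.25% of all tested loci were called. It was lower at 53 (7.34%), against 2.34% of all tested loci. The median difference was 0.22 for unnamed loci and -0.01 for all tested loci.

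The tg1 library was lower than tg2 at 96 unnamed loci (13.3%), against 1.98% of all tested loci. It was higher at 30 (4.16%), against 1.33%. The median of tg1 minus tg2 was -0.34 for unnamed loci and -0.04 for all tested loci.

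In the pairs without tg2 the medians lay nearer to 0, at 0.07, -0.09 and -0.14. Set against hom, tg1 was higher at 48 unnamed loci and lower at 40, with 1.82% and 1.72% of all tested loci called. That order turned to 9 higher and 19 lower with a pseudocount of 5, to 19 and 20 with a filter of 5 FPKM and to 29 and 32 without loci listed at 0. Set against CAG, tg1 was higher at 31 and lower at 61, with 1.19% and 2.36% of all tested loci called. The hom library was higher than CAG at 41 and lower at 83, with 1.87% and 3.43% of all tested loci called. In each of these 3 pairs the share called among unnamed loci was above that over all tested loci in both directions.

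**Figure D3:**
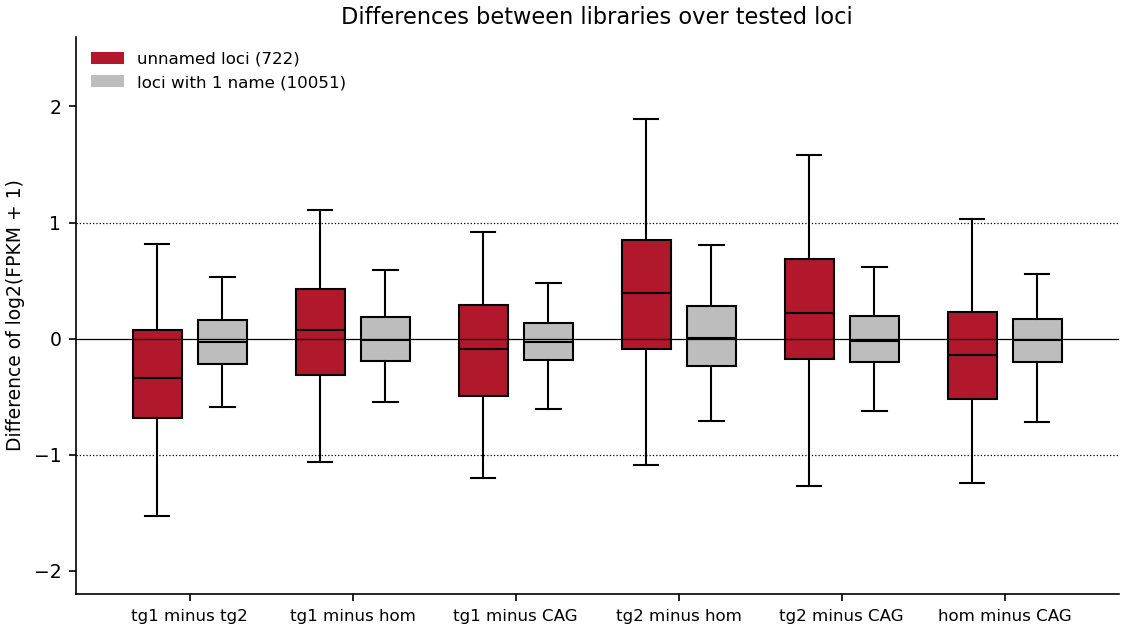
Difference of log2(FPKM + 1) in each of the 6 pairs of libraries for tested unnamed loci and tested loci with 1 name; boxes give the quartiles and the median, whiskers the 5th and 95th percentiles, and dotted lines the call. The unnamed boxes are wider in every pair and all include 0, and the medians farthest from 0 are -0.34 for tg1 minus tg2, 0.39 for tg2 minus hom and 0.22 for tg2 minus CAG.

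The excess in tg2 over hom was seen in each of 4 bands of level. Of the unnamed loci with a mean of 1 to 2 FPKM, 15.3% were higher in tg2 than in hom, against 5.50% of loci with 1 name at that level. At 2 to 5 FPKM the shares were 20.8% and 3.30%, at 5 to 20 FPKM 18.0% and 2.23%, and at 20 FPKM or more 20.6% and 3.19%. Among the 630 unnamed loci of at least 200 bp with no value of 0, 88 (14.0%) were higher in tg2 than in hom and 33 (5.24%) were lower, with a median of 0.38. Over all tested loci, without that restriction, 3.78% were higher and 2.69% lower. Named loci were not restricted in the same way. The median was 0.39 over 596 loci apart from named loci and 0.34 over 126 sharing a named span for tg2 minus hom, 0.27 and 0.07 for tg2 minus CAG, and -0.36 and -0.25 for tg1 minus tg2.

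**Figure D4:**
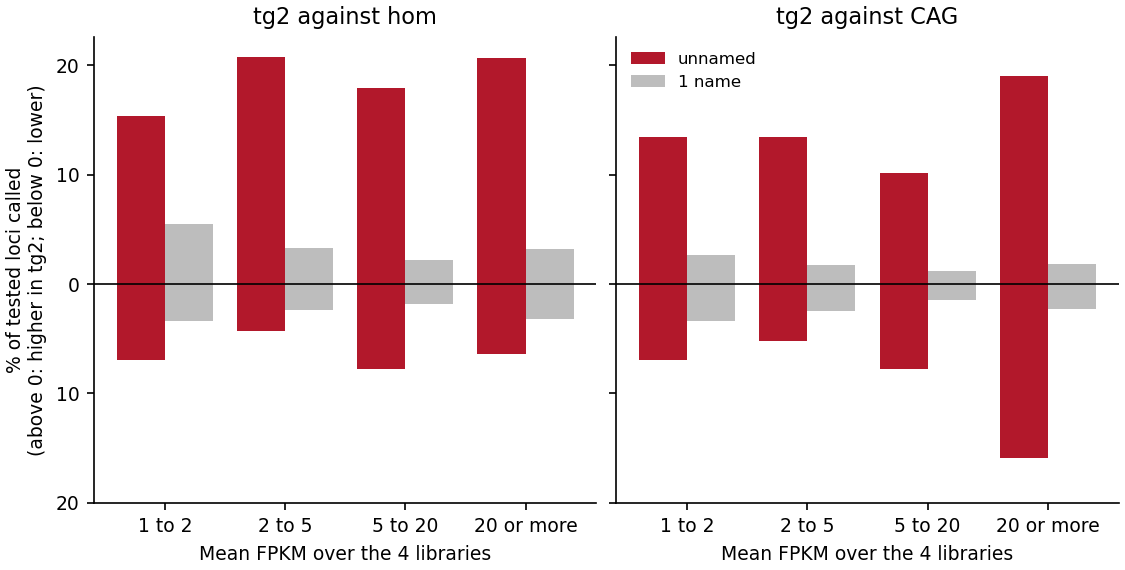
Percent of tested loci called higher (above 0) or lower (below 0) in tg2, against hom on the left and against CAG on the right, by mean FPKM, for unnamed loci and loci with 1 name. For tg2 against hom the unnamed bars reach 15.3% to 20.8% upward, against 2.23% to 5.50% for loci with 1 name.

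Named genes of long non-coding RNA gave a further set of loci to place beside the unnamed ones. The files hold 42 tested loci with 1 name that Release 6 lists as such. Their median difference was 0.26 for tg2 minus hom, 0.34 for tg2 minus CAG and -0.25 for tg1 minus tg2. Protein-coding loci had medians of 0.00, -0.02 and -0.03 in those 3 pairs. For tg1 minus CAG and hom minus CAG the 42 had -0.02 and 0.00, against -0.09 and -0.14 for unnamed loci. Of the 42, 3 (7.14%) were called higher in tg2 than in hom, against 18.1% of unnamed loci and 2.75% of protein-coding loci. Called lower were 2 (4.76%), against 6.23% and 2.33%. For tg1 against tg2, 2 of the 42 were higher and 1 lower, where 30 and 96 of the 722 unnamed loci were.

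Relative depth and listed zeros are set beside these results. The tg2 library, with a depth relative to CAG of 1.154, listed 17 unnamed loci at 0, and hom, with 0.762, listed 52. The tg1 library, with 1.116, listed 36, and CAG, the reference for relative depth, listed 27. The part of depth in the difference between tg2 and the other libraries was not tested. Nor was the part of how loci came to be listed. From 500 to under 1000 bp, 0 of 299 unnamed loci were listed at 0 in all 4 libraries, against 99 of 1251 loci with 1 name.

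Spread among lines was wider for unnamed loci than for loci with 1 name. From the lowest to the highest library, the median range was 0.92 on the log2(FPKM + 1) scale, against 0.40. It reached 1 at 310 of 722 unnamed loci (42.9%) and at 9.79% of loci with 1 name. At 5 to 20 FPKM the medians of that range were 0.93 and 0.37. The range also went with span. Among loci with 1 name, tested or not, its median was 0.36 at 2000 bp or more and 0.82 from 200 to under 500 bp. Unnamed loci had 0.87 and 1.34 in those bands. From 100 to under 150 bp loci with 1 name had 1.62 and unnamed loci 1.52. The part of span in the wider spread was not tested. The highest library was tg1 at 83 unnamed loci, tg2 at 361, hom at 108 and CAG at 170, and the lowest was hom at 290.

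A library stood apart where it lay at least 1 above or below each of the other 3. The tg2 library stood above at 42 unnamed loci, against 0.659% of all tested loci, and these were 54.5% of the 77 loci of any kind where it did. Of the 42, 19 had a listed 0 and 10 were under 200 bp, with 12 on 2L, 9 on X and 7 on 2R. The mean used by the filter includes tg2, so some were tested only through their tg2 value. The 54.5% is therefore not independent of the filter. It stood below at 8, against 0.505% of all tested loci. The tg1 library stood above at 2 and below at 9, against 0.111% and 0.18%. The hom library stood above at 10 and below at 17, against 0.684% and 0.744%. The CAG library stood above at 16 and below at 8, against 0.779% and 0.351%.

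Counts are given by arm as a description. Higher in tg2 than in hom were 34 of 137 tested unnamed loci on X, 25 of 93 on 2R, 26 of 133 on 2L, 14 of 138 on 3L and 14 of 111 on 3R. Loci with 1 name called in that direction made up 2.34% on X, 3.69% on 2R, 3.60% on 2L, 2.52% on 3L and 2.20% on 3R. The median difference was highest on X, at 0.59, and lowest on 2L and 3L, both at 0.29. Of the 45 unnamed loci lower in tg2 than in hom, 21 lay on 2L, which is 15.8% of its tested unnamed loci, against 2.87% of its loci with 1 name. That arm also held 20 of the 30 loci higher in tg1 than in tg2, 15.0% of its tested unnamed loci, against 2.04% of its loci with 1 name. Within 2L, the stretch from 8 to 12 Mb had 8 of 20 tested loci lower in tg2 than in hom and 4 higher. Over all tested loci 2.69% were lower and 3.78% higher. The stretch is given because it had the most lower calls of any 4-Mb stretch, and no difference between stretches was tested. Of the 8, 4 are the members of the run chr2L:9676125-9680143 described below. The share over named loci of that stretch is not given.

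For 505 tested unnamed loci on the main arms that stood apart, the nearest tested named locus was compared. Of the 94 that were higher in tg2 than in hom, 7 had a neighbour that was also called higher, and of the 37 that were lower, 1 had a neighbour called lower. Over all 505, 14 neighbours (2.77%) were higher and 11 (2.18%) lower. Across loci, the Pearson correlation between the 2 differences was 0.29 for the 134 with a neighbour under 1 kb away and -0.08 for the 371 farther away. All these points come from the same libraries, and loci can share a neighbour.

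The largest difference without a 0 was at chr3R:20651522-20652209, 688 bp long. It had 4.31, 3.13, 70.5 and 4.76 FPKM in tg1, tg2, hom and CAG, so hom was far above the rest. The difference was -3.75 for tg1 minus hom, -4.12 for tg2 minus hom and 3.63 for hom minus CAG. It lies 416 bp from niki, which encodes a NimA-like kinase, and 193 bp from RabX4, a Rab GTPase gene, and Release 6 lists lncRNA:CR43166 between them. The neighbours did not follow it, with 1.03, 0.610, 1.30 and 0.876 FPKM for niki and 9.11, 8.14, 8.37 and 5.83 FPKM for RabX4.

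The CAG library stood high at several unnamed loci. At chr3L:13292810-13293257, 448 bp long, the values were 45.9, 33.3, 38.0 and 265 FPKM, and CAG was at least 2.50 above each other library on the log2 scale. Here both neighbours were high in CAG too. Acp70A, the sex peptide that males transfer at mating, had 13.8, 9.56, 19.1 and 96.2 FPKM, and CG42481 had 38.3, 37.7, 43.1 and 340 FPKM. CG42481 lies 687 bp and Acp70A 1477 bp from the unnamed locus, and Release 6 lists CG43147 between them.

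On 2R, the 123-bp locus chr2R:13075046-13075168 had 46.4, 45.6, 82.8 and 331 FPKM in tg1, tg2, hom and CAG. Its neighbour CG10950 had 18.9, 17.7, 18.7 and 16.2 FPKM, and CAG was the lowest there. On 3L, chr3L:22022561-22022837 near TyrR, a tyramine receptor gene, had 5.76, 3.18, 4.84 and 36.2 FPKM. On 2L, chr2L:17353912-17354670 had 11.3, 2.82, 6.57 and 39.1 FPKM, with tg2 minus CAG at -3.40. In all 3 of these loci CAG was the highest library.

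The tg1 library was high together with another library at some loci. At chr2L:1216880-1217791, 912 bp long, tg1 and CAG were high and tg2 and hom were near 0, with 10.4, 0.105, 0.152 and 5.92 FPKM in tg1, tg2, hom and CAG. The difference was 3.36 for tg1 minus tg2 and 3.30 for tg1 minus hom. At chrU:6887228-6887380, 153 bp long, the same 2 libraries were high, with 56.9, 14.4, 7.93 and 68.8 FPKM. At chrX:15114308-15115238 the tg lines were together above the others, with 8.25, 9.13, 2.09 and 1.08 FPKM.

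**Figure D5:**
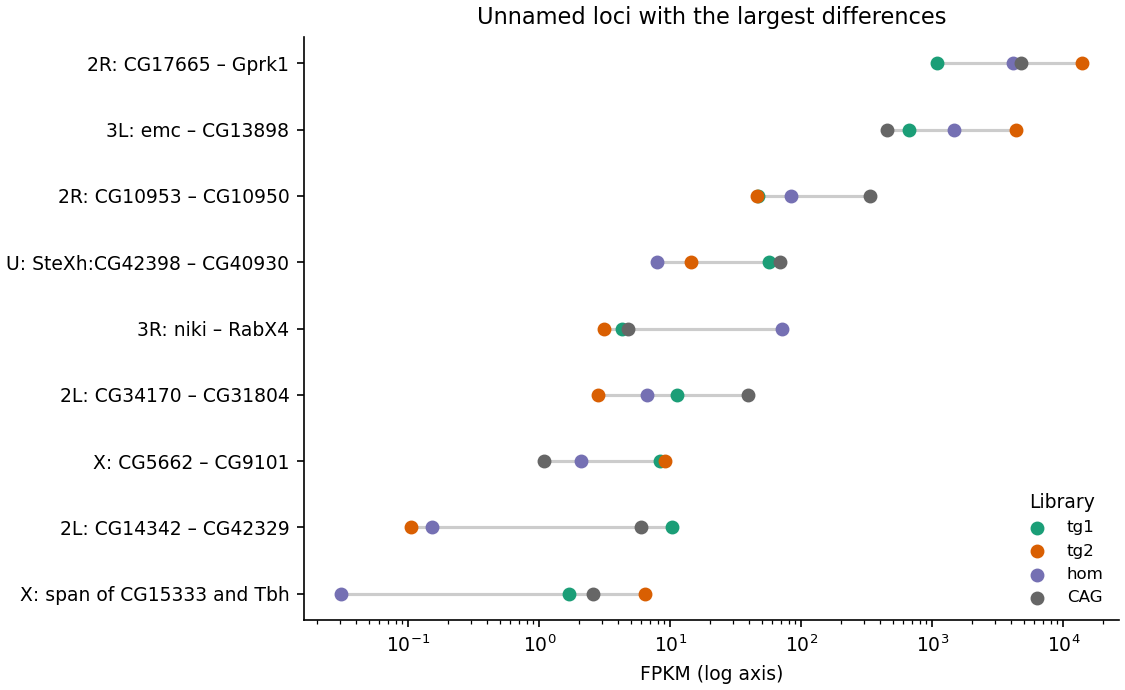
FPKM on a log axis in each library for the unnamed loci with the largest difference of each pair and direction among tested loci with no 0, labelled by arm and named neighbours or by the named span. The locus between niki and RabX4 has hom at 70.5 FPKM with the other libraries at 3.13 to 4.76.

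At a pair of unnamed loci whose named neighbours enclose tRNA genes, tg2 was the highest library. The 103-bp locus chr3L:769512-769614 had 659, 4337, 1461 and 452 FPKM in tg1, tg2, hom and CAG, and the 125-bp locus chr3L:770372-770496 had 40.2, 258, 35.7 and 71.8 FPKM. Both lie between emc, which encodes an inhibitor of basic helix-loop-helix factors, and CG13898, where Release 6 lists tRNA:Ile-TAT-1-1 and tRNA:Ile-TAT-1-2. For the 11 unnamed loci with a tRNA gene between the same neighbours, all of them tested, tg2 was higher than hom at 5 and lower at 0, where 3.78% and 2.69% of all tested loci and 18.1% and 6.23% of tested unnamed loci were called. This grouping was made after values had been seen.

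Some loci were listed at 0 in 1 library only, with at least 5 FPKM in each other library. In tg1 these were chrUextra:22665871-22665941, with 0, 15766, 13916 and 7776 FPKM in tg1, tg2, hom and CAG, and chrUextra:12316388-12316553, with 0, 40.8, 35.5 and 48.5 FPKM. In tg2 it was chr2R:1523881-1524048, with 32.2, 0, 33.4 and 10.6 FPKM, and in hom chr2R:7973108-7973316, with 15.5, 6.48, 0 and 7.59 FPKM. A listed 0 can be a failed estimate, and no fold is given. Each of the 4 is at most 209 bp long.

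Other loci were detected mainly in 1 library. The locus chrX:16067782-16068028, between the zinc-finger genes disco-r and disco, had 0.826, 11.5, 0 and 0 FPKM in tg1, tg2, hom and CAG. Likewise chr2R:184449-184993 had 0.211, 7.64, 0 and 0 FPKM and chr2L:9123946-9124685 had 0, 4.84, 0 and 0 FPKM, so tg2 carried nearly all of the signal at these 3. In CAG alone, chr2L:9886913-9887758, which is 100 bp from the nicotinic receptor gene nAcRalpha-30D, had 6.64 FPKM and the other libraries were listed at 0. At chr3R:26447058-26447321 hom was the high library, with 0, 0, 11.8 and 0.821 FPKM in tg1, tg2, hom and CAG.

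Unnamed loci also came in runs. There were 40 runs of at least 4 that followed each other with no named locus starting between them, with 218 loci in all, and 31 of the runs lay on the main arms. The longest, chr3R:6725155-6766905, held 12 loci before CG4683, of which 3 were tested. Its summed FPKM was 8.86, 12.9, 7.58 and 13.5 in tg1, tg2, hom and CAG. In 10 runs all members shared 1 span.

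The most abundant members of 3 runs whose named neighbours enclose microRNA genes had no pair of libraries 1 apart on the log2(FPKM + 1) scale. The run chr3R:5902868-5926494 lies between CG5361 and mir-34, where Release 6 also lists mir-317 and mir-277. Its most abundant member, chr3R:5908788-5926494, had 42.9, 39.1, 43.6 and 43.8 FPKM in tg1, tg2, hom and CAG. The member chr3R:5902868-5903319 of the same run was not level, with 0.824, 0.270, 5.29 and 1.87 FPKM. In the run chr3L:628381-641837, between neighbours that enclose mir-ban, the growth-promoting bantam microRNA gene, the most abundant had 5.32, 5.96, 4.71 and 6.36 FPKM. In the 10 loci of chr3L:10325388-10360593, whose neighbours enclose mir-276a and mir-276b, the most abundant had 9.03, 8.73, 9.39 and 9.87 FPKM.

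Grouping by the Release 6 genes between the neighbours, done after values had been seen, gave these counts beside 3.78% higher and 2.69% lower in tg2 than in hom over all tested loci. Of the 43 unnamed loci with a microRNA gene there 40 were tested, and of these 4 were higher in tg2 than in hom and 3 were lower, with a median of 0.21. The 147 tested loci with no further Release 6 gene between their neighbours had 37 higher and 9 lower, with a median of 0.64. For the 243 tested loci with a long non-coding RNA gene there, 36 were higher and 20 lower, with a median of 0.34. A locus can belong to more than one of the groups by gene type, and none of these differences between groups was tested.

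Some runs had their highest sum in tg2. The 5 unnamed loci sharing the span of CG10947, chr2L:20385293-20414834, summed to 1.99, 25.0, 1.35 and 2.61 FPKM in tg1, tg2, hom and CAG. All 5 were called higher in tg2 than in hom and than in CAG, against 3.78% and 2.25% of all tested loci. The mean used by the filter includes tg2, where most of their FPKM lay, so these calls are not independent of the filter. Since they share 1 span, they are not separate observations. The run chrX:6749824-6755189, between CG14434 and CG33691, held 5 separate spans that summed to 0.305, 12.5, 0.200 and 0.289 FPKM, and none of them passed the filter. At chrX:6174465-6177601, between Ubi-p5E and Top3beta, 4 loci summed to 3.52, 12.8, 5.38 and 7.67 FPKM, and 1 of the 3 tested was called higher in tg2 than in hom. That was the most abundant, with 1.81, 7.63, 1.31 and 1.64 FPKM.

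The opposite was seen on 2L. The run chr2L:9676125-9680143, before Pka-C1, which encodes a catalytic subunit of protein kinase A, had 4 separate spans that summed to 7.85, 1.71, 11.9 and 5.27 FPKM in tg1, tg2, hom and CAG. At all 4, tg2 was called lower than hom, against 2.69% of all tested loci. The 4 lie within 4019 bp and may not be separate observations. On 3L, the 256-bp locus chr3L:20980451-20980706 had 4.56, 1.51, 12.7 and 2.64 FPKM, again with hom highest and tg2 lowest.

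A few more loci that the naming rule took differed among lines. In the span of Octbeta2R, an octopamine receptor gene, 10 unnamed loci summed to 14.4, 18.0, 7.91 and 16.7 FPKM in tg1, tg2, hom and CAG, with hom lowest. In the span of Tbh, which makes octopamine from tyramine, and CG15333, chrX:7889630-7921620 had 1.68, 6.42, 0.0305 and 2.56 FPKM. In the span of Mtk, which encodes the antimicrobial peptide metchnikowin, chr2R:11288574-11297431 had 5.28, 9.13, 1.97 and 1.01 FPKM. The locus chrX:18021512-18024336, next to ari-1, had 24.6, 15.5, 13.0 and 5.09 FPKM, and Release 6 lists mir-210 between its neighbours. These loci are low in different libraries, hom at the first 2 and CAG at the last 2.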

How the data were processed

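The authors deposited 1 FPKM value per locus and library, a unit stated per the file headers. Per the submitters' processing notes, TopHat, SAMtools, bedtools and Cufflinks were used with the dm3 build. The sources used here do not give versions, the annotation, the handling of multi-mapping reads, strand use or read totals. Per the labels' protocols, RNA was ribosome-depleted and treated with DNase, and libraries were read as 48-nt pairs.

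From these values, differences of log2(FPKM + 1) were taken in python 3.11.15 with numpy 2.4.6, pandas 2.3.3 and matplotlib 3.10.9. This scale understates the change of low loci. The filter kept loci averaging 1 FPKM or more, and a call was a difference of at least 1. The counting was tested on simulated data, with changes placed only in loci well above the median level of the unnamed ones. That simulation does not show how calls behave at low levels. No count test was run, since total depth is unknown. The precision of a single value cannot be given.

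Coordinates are those of the files on dm3, counted from 1. The deposited starts were taken to count from 0, since end minus start equalled the annotated gene length for 964 of 9153 names and for 98 when 1 was added. No dm3 genome was used and no sequence is shown.

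Loci were named by fixed rules: the 10 highest means, the top locus of each arm, the longest and shortest spans, the 3 largest differences per pair and direction without a 0, the 3 standing farthest apart per library and direction, listed zeros in 1 library, runs of at least 4, and shared spans. Groups by Release 6 gene type were added later. Members, lists and alternatives were chosen with earlier results of these data known. The alternatives were pseudocounts of 0.1 and 5, no filter, a filter of 5 FPKM, centring, and leaving out loci with a 0, loci overlapping a named locus, or spans under 200 bp. Keeping 1 locus per span was added after seeing the data.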

Additional observations from a re-analysis of the deposited data

How the results depend on the processing

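The 12 counts of called unnamed loci (2 directions in 6 pairs) depended on the pseudocount and on the filter. With a pseudocount of 0.1, 10 of the 12 moved by over 1.5 times: 155 lower in tg1 than in tg2, 102 higher and 86 lower in tg1 than in hom, 68 higher and 115 lower in tg1 than in CAG, 221 higher in tg2 than in hom, 157 higher and 81 lower in tg2 than in CAG, and, for hom against CAG, 70 higher and 136 lower. With a pseudocount of 5 the counts higher and lower were 6 and 27 for tg1 against tg2, 9 and 19 for tg1 against hom, 6 and 25 for tg1 against CAG, 39 and 11 for tg2 against hom, 28 and 20 for tg2 against CAG, and 9 and 21 for hom against CAG. With a filter of 5 FPKM, which left 230 loci, they were 13 and 28, 19 and 20, 15 and 29, 43 and 17, 29 and 23, and 16 and 30 in the same order. The fall under that filter goes with fewer loci tested. Without loci listed at 0, tg1 was higher than hom at 29. The 12 counts stayed within 1.5 times with no filter, with centring, without loci overlapping a named locus, without spans under 200 bp and with 1 locus per span. In all 9 alternatives the loci higher in tg2 than in hom outnumbered the lower ones. No paired analysis was possible because each line has 1 library. Values under about 1 FPKM rest on few fragments, and the depth behind them is unknown.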
